A study of Mus musculus with 27 samples.

Results

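The 8535 regions described here are stretches of the mouse genome that gave transcripts in immortalized mouse embryonic fibroblasts (iMEFs) but carry no gene name in the deposited files. They come from an RNA-seq experiment in which *Dnmt1* was knocked down by siRNA with or without deletion of *Setdb1*. In each of the 8 libraries, Cufflinks had assembled the reads into loci, and each locus is a row with a level in FPKM (fragments per kilobase of transcript, scaled by the mapped fragments of the library). Rows without a gene name, with the status OK and at least 1 FPKM were taken, and rows that overlapped across libraries were merged into 12687 regions. The regions were thus selected on their FPKM in these libraries. The level of a region in a library is the FPKM of its highest row, and it is 0 where no row is listed. The 8535 regions with a row in at least 2 libraries were kept, and 4152 with a row in 1 library were not. The values near this limit are low. The second highest level was 1.002 FPKM in chr1:6315719-6316748 and 1.012 FPKM in chr1:193764184-193765653, just inside the limit, and 0.9665 FPKM in chr6:52201312-52201735 and 0.9621 FPKM in chr9:21395194-21395854, just outside.

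All 8 libraries came from *Setdb1* cKO iMEFs, a recloned line with floxed *Setdb1* in which 4-hydroxytamoxifen (4OHT) activates Cre and deletes the gene. Cells transfected with control siRNA are called siCtrl and cells transfected with *Dnmt1* siRNA are called siDnmt1. The other pair of conditions, 4OHT + siCtrl and 4OHT + siDnmt1, received 4OHT at the time of the first transfection. All cells were transfected a second time and harvested at day 6, and there are 2 libraries per condition. Because the line is 1 clone, replicates are cultures of that clone at most, and the labels do not say whether they were grown apart.

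*Dnmt1* encodes the maintenance DNA methyltransferase, which copies CpG methylation onto newly made DNA strands. *Setdb1* encodes a histone methyltransferase that deposits H3K9me3, a mark of silent chromatin. Both are known to keep endogenous retroviruses (ERVs) silent. ERVs are remnants of retroviral insertions with long terminal repeats (LTRs), which hold their promoter, and gene annotation leaves most of them out. IAPEz is a mouse ERV family of the ERVK group with many copies and dense CpG methylation. MMERVK10C is another ERVK family, VL30 is a family of retrovirus-like elements sorted into U3 classes by the promoter part of the LTR, and RLTR4 belongs to elements related to murine leukaemia virus.

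Stretches of 300 bases from 5 regions are given with their CpG sites (mm9, CpG in capitals). For IAPEz, MMERVK10C and the region of no listed family, the stretch with the most CpG sites in the region is printed. For both VL30 elements, which the study names, the 5′ end of the listed element is printed, in the direction of the element.
IAPEz, chr14:51500009-51500308, + strand: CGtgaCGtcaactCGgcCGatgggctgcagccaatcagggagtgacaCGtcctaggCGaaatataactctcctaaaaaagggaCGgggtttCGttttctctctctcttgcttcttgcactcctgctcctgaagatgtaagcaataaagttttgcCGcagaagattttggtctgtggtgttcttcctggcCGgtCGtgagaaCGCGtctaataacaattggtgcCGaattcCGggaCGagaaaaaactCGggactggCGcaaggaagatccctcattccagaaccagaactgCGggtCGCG
MMERVK10C, chr3:96318535-96318834, - strand: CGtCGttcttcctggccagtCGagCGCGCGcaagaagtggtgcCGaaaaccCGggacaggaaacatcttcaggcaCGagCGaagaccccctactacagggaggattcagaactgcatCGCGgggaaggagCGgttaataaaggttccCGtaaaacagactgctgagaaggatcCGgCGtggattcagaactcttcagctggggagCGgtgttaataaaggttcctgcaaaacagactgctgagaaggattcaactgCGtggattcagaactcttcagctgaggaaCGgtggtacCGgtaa
VL30 U3 class I #9, chr2:75476160-75476459, + strand: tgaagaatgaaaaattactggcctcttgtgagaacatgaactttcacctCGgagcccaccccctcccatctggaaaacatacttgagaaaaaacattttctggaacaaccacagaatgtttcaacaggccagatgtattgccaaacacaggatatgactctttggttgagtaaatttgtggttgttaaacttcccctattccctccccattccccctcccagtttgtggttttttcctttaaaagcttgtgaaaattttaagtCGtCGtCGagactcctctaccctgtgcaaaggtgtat
VL30 U3 class I #38, chr11:86629598-86629897, - strand: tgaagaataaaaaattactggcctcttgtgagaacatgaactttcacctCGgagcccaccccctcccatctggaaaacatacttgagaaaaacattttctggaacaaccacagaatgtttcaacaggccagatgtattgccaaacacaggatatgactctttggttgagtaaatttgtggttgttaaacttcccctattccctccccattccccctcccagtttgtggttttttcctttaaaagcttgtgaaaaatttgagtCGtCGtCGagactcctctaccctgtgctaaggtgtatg
no listed family, chr14:22623976-22624275, + strand: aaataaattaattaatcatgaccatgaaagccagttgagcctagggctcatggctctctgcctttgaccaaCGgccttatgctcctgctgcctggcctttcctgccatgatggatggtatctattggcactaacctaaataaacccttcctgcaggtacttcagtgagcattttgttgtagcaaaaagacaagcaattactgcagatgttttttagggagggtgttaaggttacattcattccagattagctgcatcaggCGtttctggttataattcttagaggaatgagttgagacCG
The IAPEz stretch holds 21 CpG sites and the MMERVK10C stretch 20. Each VL30 stretch holds 4, and the stretch of no listed family holds 3. Unlike the others, the VL30 stretches were not chosen for their CpG sites, so these counts do not rank the families. The VL30 stretches are close copies, and 276 of the 300 bases of #9 lie in 24-base words that also occur in the stretch of #38. Such copies are hard to tell apart with reads of 51 bases. A read that matched several copies was placed at a single one of them, so levels of single copies are uncertain.

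The labels were checked in the same libraries. *Dnmt1* was at 80.5 and 73.4 FPKM in siCtrl, 12.2 and 10.6 FPKM in siDnmt1, 78.7 and 78.3 FPKM in 4OHT + siCtrl, and 12.2 and 11.4 FPKM in 4OHT + siDnmt1. It was thus low in the 4 libraries labelled as knockdown. *Setdb1* was between 5.0 and 7.58 FPKM in all 8 libraries, and the level of the whole gene does not show the deletion of part of it. The implied depth, from the intervals of unannotated rows between 1000 and 5000 bp, was 13.0 to 14.9 M fragments per library. The 11 fibroblast markers had a summed level of 5080 and 5180 FPKM in siCtrl, 4110 and 4280 FPKM in siDnmt1, 2410 and 3720 FPKM in 4OHT + siCtrl, and 2460 and 2490 FPKM in 4OHT + siDnmt1. Col1a1 was at 1110 and 1150 FPKM in siCtrl and at 243 and 202 FPKM in 4OHT + siDnmt1. Pdgfrb was at 34.7 and 32.5 FPKM and at 1.82 and 3.57 FPKM, and Lum at 1.64 FPKM or less in all 8 libraries. Other markers did not fall. Vim was at 925 and 965 FPKM in siCtrl, 1320 and 1370 FPKM in siDnmt1, and 1080 and 1380 FPKM in 4OHT + siDnmt1. Thy1 was at 59.2 and 61.3 FPKM, 135 and 128 FPKM, and 62.6 and 68.7 FPKM in the same conditions. The 4 epithelial markers summed to 0.986 and 0.677 FPKM in siCtrl, 55.8 and 55.4 FPKM in siDnmt1, 1.12 and 12.6 FPKM in 4OHT + siCtrl, and 86.3 and 53.5 FPKM in 4OHT + siDnmt1. The keratins Krt8 and Krt18 made up most of that sum, while Epcam was at most 1.69 FPKM and Cdh1 at most 0.937 FPKM. Summed markers of blood cells ranged from 3.0 to 8.92 FPKM, of endothelium from 0.238 to 0.817 FPKM and of pluripotent cells from 1.18 to 2.03 FPKM. Their part in the results on the regions was not tested. The replicates of 4OHT + siCtrl stood further apart than those of the other conditions. For named genes with 50 to 2000 fragments, the squared difference between replicates over its counting variance had a median of 10.3 in 4OHT + siCtrl, 3.81 in 4OHT + siDnmt1, 1.74 in siCtrl and 1.25 in siDnmt1, where counting noise alone gives 0.455.

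More regions had a row with the *Dnmt1* siRNA. Rows were listed in 1773 and 1677 regions in siCtrl and in 6291 and 6215 regions in siDnmt1. With 4OHT + siCtrl there were 2389 and 2561 regions, and with 4OHT + siDnmt1 5919 and 4856. Both knockdown conditions thus listed more regions than either condition with control siRNA, at similar depth. A region without a row is not shown to be silent, because Cufflinks lists only what it could assemble.

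**Figure D1:**
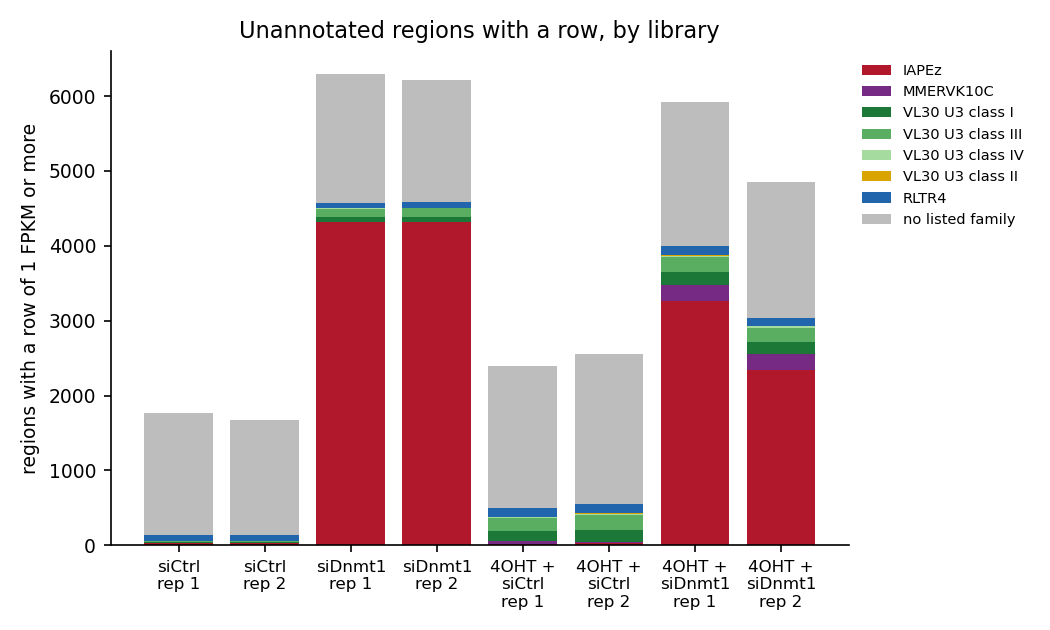
Number of regions with a row of at least 1 FPKM (y axis) in each of the 8 libraries (x axis), stacked by sequence class. The 4 libraries with *Dnmt1* siRNA reach 4856 to 6291 regions and the others 1677 to 2561, and most of the additional regions are of the IAPEz class.

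The regions were sorted by sequence, which the selection did not use. The study lists the positions of ERV elements of 7 families or classes, and words of 24 bases that recur among the elements of a family and their flanks were used to assign each region. A region was assigned where at least 20% of its words came from a family. IAPEz took 4364 of the 8535 regions (51.1%), MMERVK10C 209, VL30 U3 class I 171, class III 204, class IV 21, class II 13, and RLTR4 148. The other 3405 regions (39.9%) had the sequence of no listed family. Of the IAPEz regions, 1208 lay on a listed IAPEz element, and the rest were assigned by sequence alone. A median of 99.1% of an IAPEz region lies in stretches of 51 bases that occur in another of the regions, against 0.0% for regions of no listed family, of which 64.7% share none. Regions of a family are therefore not independent measurements. This assignment was chosen after the data were seen, so counts by overlap with listed elements (at least 50% of the shorter) are given once here. By overlap, 927 of 1208 IAPEz regions were called higher in siDnmt1, 0 by limma in 4OHT + siCtrl and 635 in 4OHT + siDnmt1, each against siCtrl. Of 206 MMERVK10C regions, 0 were called higher by limma in siDnmt1, 8 in 4OHT + siCtrl and 175 in 4OHT + siDnmt1. Of 107 VL30 U3 class I regions, 20, 54 and 71 were called higher in the same conditions, and of 166 class III regions 63, 84 and 114. The background of these calls is given with each comparison.

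The classes differed in length, place and base composition. The median length was 786 bp over all regions and ranged from 216 bp for VL30 U3 class II to 1042 bp for RLTR4. Of the IAPEz regions 76.6% were intergenic, 22.6% intronic and 0.756% exonic by the GENCODE M1 annotation of mm9. Of the regions of no listed family 46.7% were intergenic, 22.0% intronic and 31.3% exonic. The median ratio of observed to expected CpG was 0.414 for IAPEz, 0.374 for MMERVK10C, 0.473 for RLTR4 and 0.232 for regions of no listed family. For VL30 it was 0.278 in U3 class I, 0.318 in class III, 0.438 in class IV and 0.649 in class II. The regions outside the listed families thus had the lowest ratio and lay on exons most often. Of their exonic regions, 866 overlapped exons of protein-coding genes, 91 pseudogenes, 53 processed transcripts and 43 lincRNAs.

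The condition in which a region was listed went with its sequence class. Rows in all 4 libraries of the *Dnmt1* knockdown and in no other were found for 2272 regions, of which 2218 (97.6%) were of the IAPEz class. A further 1113 regions were listed in both siDnmt1 libraries alone, and 1015 of those were of the IAPEz class. The 323 regions listed in both 4OHT + siDnmt1 libraries alone had another makeup, with 166 of the MMERVK10C class and 1 of the IAPEz class. Of the 179 regions listed in the 4 libraries with 4OHT and no other, 66 were VL30 U3 class I and 42 class III. Of the 189 regions listed in all libraries but those of siCtrl, 88 were VL30 U3 class III and 39 class I. The 498 regions listed in all 8 libraries were of no listed family in 450 cases, and all 100 regions listed in siCtrl alone were of no listed family. The median CpG ratio was 0.415 in the regions of both knockdown conditions, 0.323 in those of 4OHT + siDnmt1 alone, 0.335 in those of both 4OHT conditions, 0.282 in those present throughout and 0.216 in those of siCtrl alone.

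FPKM is an unsteady measure for short rows, so the fragments behind each row were used beside it. Cufflinks reports an interval for each FPKM, and its width gives the number of fragments the row rests on. In the 112 regions under 100 bp the median level was 10200 FPKM from a median of 14.7 fragments. In the 2898 regions of 1 to 5 kb it was 5.04 FPKM from 62.3 fragments. The region with the highest mean FPKM shows the same. This region, of 81 bp at chr13:44964939-44965019 in *Jarid2*, had 671000 to 1320000 FPKM from 135 to 266 fragments. A high FPKM of a short region thus does not mean that many fragments were read. For classes, fragments are given as FPM (scaled to the implied depth of the library as FPKM is, but not divided by length), and both measures for single regions.

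**Figure D2:**
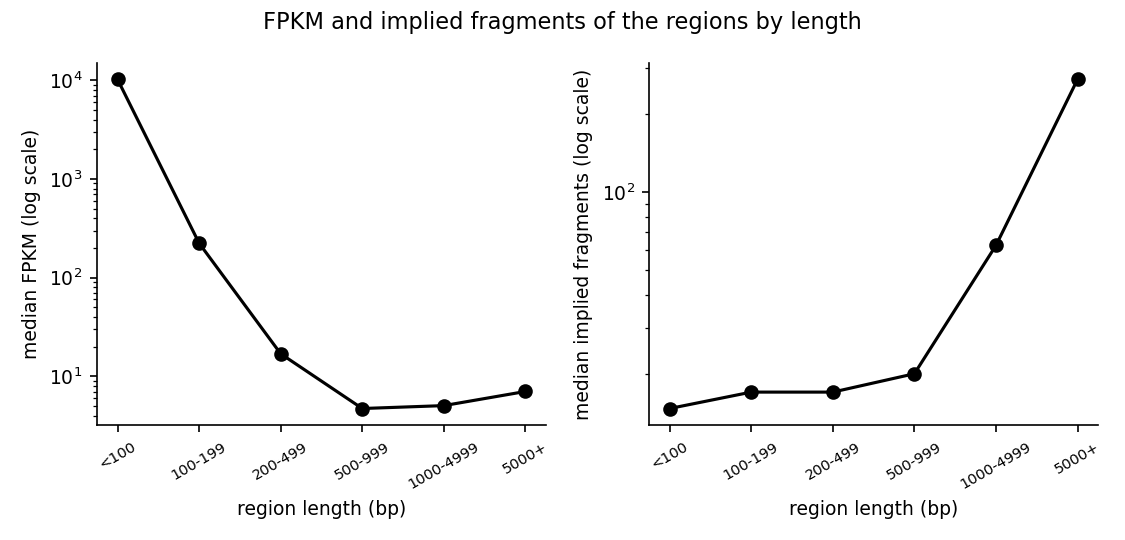
Median FPKM (left, log scale) and median number of implied fragments (right, log scale) of the regions in 6 bins of length in bp. FPKM falls from 10200 in the shortest bin to 4.71 in the bin that starts at 500 bp, while median fragments stay between 14.7 and 20 below 1000 bp.

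The first comparison, siDnmt1 against siCtrl, addresses which unannotated loci depend on *Dnmt1* while *Setdb1* is present. IAPEz sequences made up most of what was higher. In total, 3493 of the 8535 regions were called higher and 169 lower (limma on log2(FPKM + 1), adjusted p under 0.05 and at least 2-fold). Over all 19297 genes and regions tested, 19.19% were called higher and 2.1% lower, and among genes alone 1.95% were called higher and 2.19% lower. The selection used these same levels, so the counts describe the regions and test nothing about them. A region that entered the list only through the siDnmt1 libraries had to be higher there, and 3474 of the 3493 were listed at 0 in both siCtrl libraries. Of the 1237 regions with a row in both siCtrl libraries, 15 were higher and 169 lower. With quantile normalization the lower calls rose to 642 beside 3068 higher, which moves the share of lower calls from 4.61% to 17.3%.

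By class, 3168 of 4364 IAPEz regions (72.6%) were called higher with siDnmt1 and 1 lower. VL30 U3 class III followed with 71 of 204 (34.8%), class IV with 5 of 21 and class I with 30 of 171 (17.5%). By limma no MMERVK10C region was called in either direction, and 1 of 209 had an unadjusted p under 0.05. Of the regions of no listed family, 211 (6.2%) were higher and 161 (4.73%) lower. Measured as fragments per kb of region, 4081 of 4328 IAPEz regions tested were higher. The fragments on all IAPEz regions were 68.8 and 70.3 FPM in siCtrl and 48000 FPM in each of the siDnmt1 libraries. The replicates differed by far less than the conditions. In such bulk libraries, more cells that transcribe a locus and more RNA per cell cannot be told apart.

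**Figure D3:**
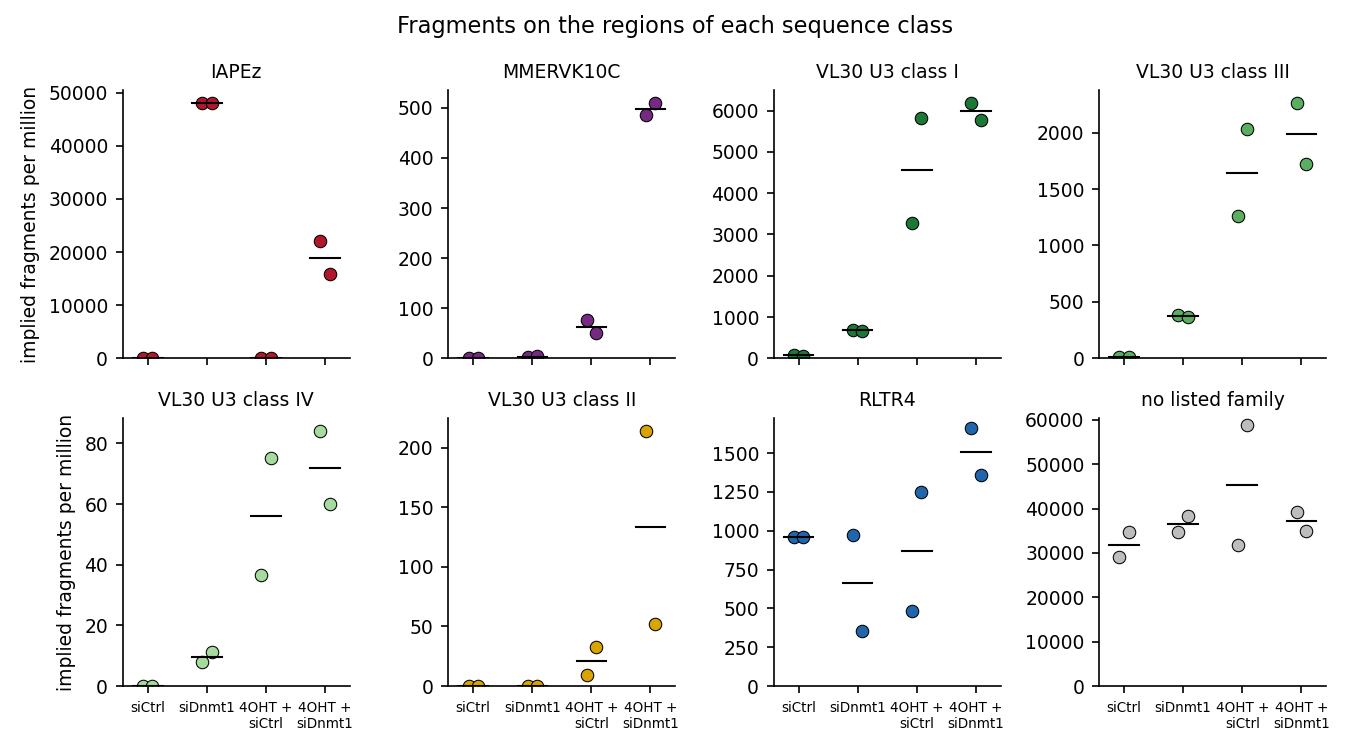
Implied fragments in FPM on the regions of each sequence class (y axis, linear, its own scale in each panel) in the 4 conditions (x axis). Each point is 1 library and the line is the mean of 2. IAPEz is at 48000 in siDnmt1, MMERVK10C at 486 and 509 in 4OHT + siDnmt1, and VL30 U3 class I at 3290 or more in the 4 libraries with 4OHT.

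The IAPEz region with the most fragments lay at chr4:116864910-116870382, 2754 bp from *Kif2c*. It had 0 listed fragments in siCtrl, 1135 and 1115 in siDnmt1, 0 in 4OHT + siCtrl, and 579 and 345 in 4OHT + siDnmt1. The region was thus listed with the *Dnmt1* siRNA alone, and its highest row was at 12.9 FPKM in each siDnmt1 library and at 6.79 and 45.5 FPKM in 4OHT + siDnmt1. The last value is above those of siDnmt1, while the fragments of that library are below them. This and the other regions of at least 1 kb named with their fragments were chosen after their values were seen. A second one, in an intron of *Dnah6* at chr6:73162826-73168460, had 981 and 1022 fragments in siDnmt1 and 620 and 539 in 4OHT + siDnmt1, and it too was listed at 0 in the other conditions. No fold change is given for either, since the level without the knockdown is not known.

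The region at chr5:121276701-121280057 is of the IAPEz class and lies 2531 bp from *Oas1b*, a gene of the interferon-induced oligoadenylate synthetase family. It was listed at 6.13 and 6.39 FPKM in siDnmt1 and at 77.3 and 78.8 FPKM in 4OHT + siDnmt1, and at 0 in the other 4 libraries. These are FPKM of its highest row, which in the region near *Kif2c* did not follow the fragments, so they are not set against the class. For the class, in FPM, 4010 of the 4364 IAPEz regions were lower in both 4OHT + siDnmt1 libraries than in either siDnmt1 library, and 13 were higher. Of the 4364, 1015 were listed in both siDnmt1 libraries alone and had to be lower, so the count is a description. Of the 3405 regions of no listed family, 455 were lower and 783 higher in this way. In the other listed families, 5 RLTR4 regions and 1 VL30 U3 class III region were lower, and 0 of the rest. Higher were 205 of 209 MMERVK10C, 189 of 204 VL30 U3 class III and 158 of 171 class I regions. Named genes were not counted in this way. Summed, the IAPEz class had 22100 and 15800 FPM in 4OHT + siDnmt1, which is below the 48000 of siDnmt1. *Dnmt1* was between 10.6 and 12.2 FPKM in all 4 of these libraries.

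The listed elements give a count over a fixed set of positions. Of the 593 listed IAPEz elements, 0 and 2 had an unannotated row in siCtrl, 583 and 584 in siDnmt1, 1 and 2 in 4OHT + siCtrl, and 584 and 580 in 4OHT + siDnmt1. Nearly every listed copy therefore had a row with the knockdown, and almost none without it. A read that matched several copies was placed at a single one, so a copy with a row is not shown to be transcribed itself. Of the 167 MMERVK10C elements, none had a row in siCtrl, 2 and 1 in siDnmt1, 26 and 12 in 4OHT + siCtrl, and 75 and 70 in 4OHT + siDnmt1. In VL30 U3 class I, with 71 elements, each siCtrl library listed 10, followed by 35 and 38 in siDnmt1, 51 and 54 in 4OHT + siCtrl, and 55 and 53 in 4OHT + siDnmt1. RLTR4 showed no such order, with 43 and 40 of 51 elements in siCtrl, 35 and 37 in siDnmt1, 45 in each 4OHT + siCtrl library, and 43 and 37 in 4OHT + siDnmt1. With 2 libraries against 2, the smallest exact permutation p is 0.333, so these counts were not tested.

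**Figure D4:**
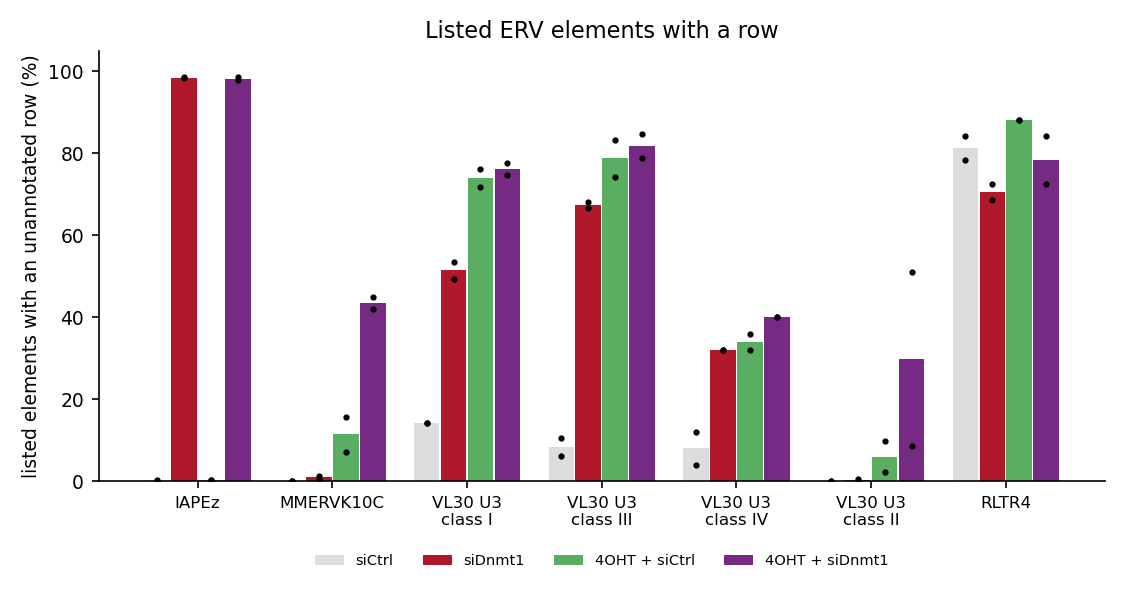
Percent of the listed ERV elements of each family that had an unannotated row (y axis) in the 4 conditions. Bars are means of 2 libraries and points the libraries. IAPEz goes from 0.337% or less without to 97.8% or more with the *Dnmt1* siRNA, and VL30 U3 class II differs between the 4OHT + siDnmt1 libraries, at 51.1% and 8.6%.

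The second comparison, 4OHT + siCtrl against siCtrl, addresses the loss of *Setdb1* with *Dnmt1* present. All samples come from the line with floxed *Setdb1*. Effects of 4OHT or Cre themselves can therefore not be told apart from the loss of *Setdb1*, here or in the later comparisons. VL30 regions were higher and IAPEz regions were not. Of the 8535 regions, 369 were called higher and 129 lower, where 2.4% of all features were higher and 1.97% lower. Of the 369, 357 were listed at 0 in both siCtrl libraries. The count changed with the control libraries and was 218 without siCtrl replicate 1 and 208 without replicate 2. VL30 U3 class I had 83 of 171 regions higher (48.5%), class III 98 of 204 (48.0%) and class IV 6 of 21. By limma IAPEz had 0 regions called higher of 4364 and 7 lower. At an unadjusted p under 0.05, 2 were higher and 13 lower, and in the fit of fragments 1 of 4328 was called higher. MMERVK10C had 8 of 209 higher.

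The fragments on VL30 U3 class I regions were 77.5 and 63.8 FPM in siCtrl, 689 and 673 in siDnmt1, 3290 and 5810 in 4OHT + siCtrl, and 6180 and 5780 in 4OHT + siDnmt1. The conditions with 4OHT did not overlap those without. Class III followed the same order, with 13.7 and 13.3 in siCtrl, 382 and 364 in siDnmt1, 1260 and 2030 in 4OHT + siCtrl, and 2260 and 1720 in 4OHT + siDnmt1. In both classes the siDnmt1 libraries lay between siCtrl and the 4OHT conditions, and the ranges of both 4OHT conditions overlapped. Class IV was at 0 in siCtrl, 7.92 and 11.2 in siDnmt1, 36.5 and 75.3 in 4OHT + siCtrl, and 84.1 and 59.9 in 4OHT + siDnmt1.

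VL30 U3 class I element #38, printed above, is covered by the region chr11:86625188-86629913. Its level was 9.67 and 16.8 FPKM in siCtrl, 27.0 and 26.7 FPKM in siDnmt1, 92.7 and 175 FPKM in 4OHT + siCtrl, and 157 and 89.2 FPKM in 4OHT + siDnmt1. Its fragments were 470 and 380, 2019 and 1962, 7105 and 13151, and 11224 and 5989 in the same order. Both measures were lowest in siCtrl and highest with 4OHT. The log2 difference of 4OHT + siCtrl to siCtrl was 3.22 (SE 0.45) in FPKM and 4.24 (SE 0.38) in fragments per kb. In experiments that the selection did not use it was less uniform. At 4OHT day 6 of the inhibitor experiment the difference to untreated cells was 2.40 in FPKM (SE 0.67, adjusted p = 0.0507, limma) and 3.98 in fragments per kb (SE 0.14, adjusted p = 2.17e-05, limma). In total RNA at 4OHT day 5 the element was listed in 1 of 3 libraries, at 258 FPKM, and the difference was 0.06 (SE 1.97, adjusted p = 0.994, limma).

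Element #9, covered by chr2:75476154-75480926, gave opposite directions in the 2 measures. Its highest row was at 216 and 165 FPKM in siCtrl, 71.9 and 38.6 FPKM in siDnmt1, 78.1 and 96.3 FPKM in 4OHT + siCtrl, and 118 and 91.8 FPKM in 4OHT + siDnmt1. Its fragments were 121 and 124 in siCtrl, 3088 and 2922 in siDnmt1, 6076 and 7262 in 4OHT + siCtrl, and 8591 and 6270 in 4OHT + siDnmt1. With siDnmt1 the log2 difference was -1.82 (SE 0.34) in FPKM and 3.91 (SE 0.14) in fragments per kb. The inhibitor experiment showed the same split, with -1.24 in FPKM (SE 0.88, adjusted p = 0.385, limma) and 4.30 in fragments per kb (SE 0.21, adjusted p = 3.84e-05, limma) at 4OHT day 6. In total RNA at 4OHT day 5 the element was higher by both measures, by 4.76 in FPKM (SE 0.09, adjusted p = 3.63e-08, limma) and 5.08 in fragments per kb (SE 0.03, adjusted p = 2.27e-11, limma).

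Elements #11 at chr2:81829007-81834066 and #23 at chr6:133669100-133673592 were listed at 0 in siCtrl. Element #11 had 117 and 55 fragments in siDnmt1, 3995 and 9724 in 4OHT + siCtrl, and 8577 and 9149 in 4OHT + siDnmt1. Element #23 had 126 and 96, 4596 and 8597, and 8257 and 7336 fragments in the same conditions. Unlike #9 and #38, both had under 130 fragments with siDnmt1 alone. Both were listed at 0 in all untreated libraries of the inhibitor and total RNA experiments. The differences there are thus levels over a listed 0. In total RNA at 4OHT day 5, #11 was higher by 6.03 on the log2(FPKM + 1) scale (SE 0.03, adjusted p = 1.28e-11, limma) and #23 by 5.32 (SE 0.04, adjusted p = 2.3e-10, limma). In the inhibitor experiment the differences were 6.41 for #11 (SE 2.16, adjusted p = 0.0856, limma) and 6.57 for #23 (SE 2.51, adjusted p = 0.121, limma), which did not pass in FPKM, while both passed in fragments per kb, at 6.69 (adjusted p = 3.95e-05, limma) and 6.74 (adjusted p = 0.000125, limma).

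**Figure D5:**
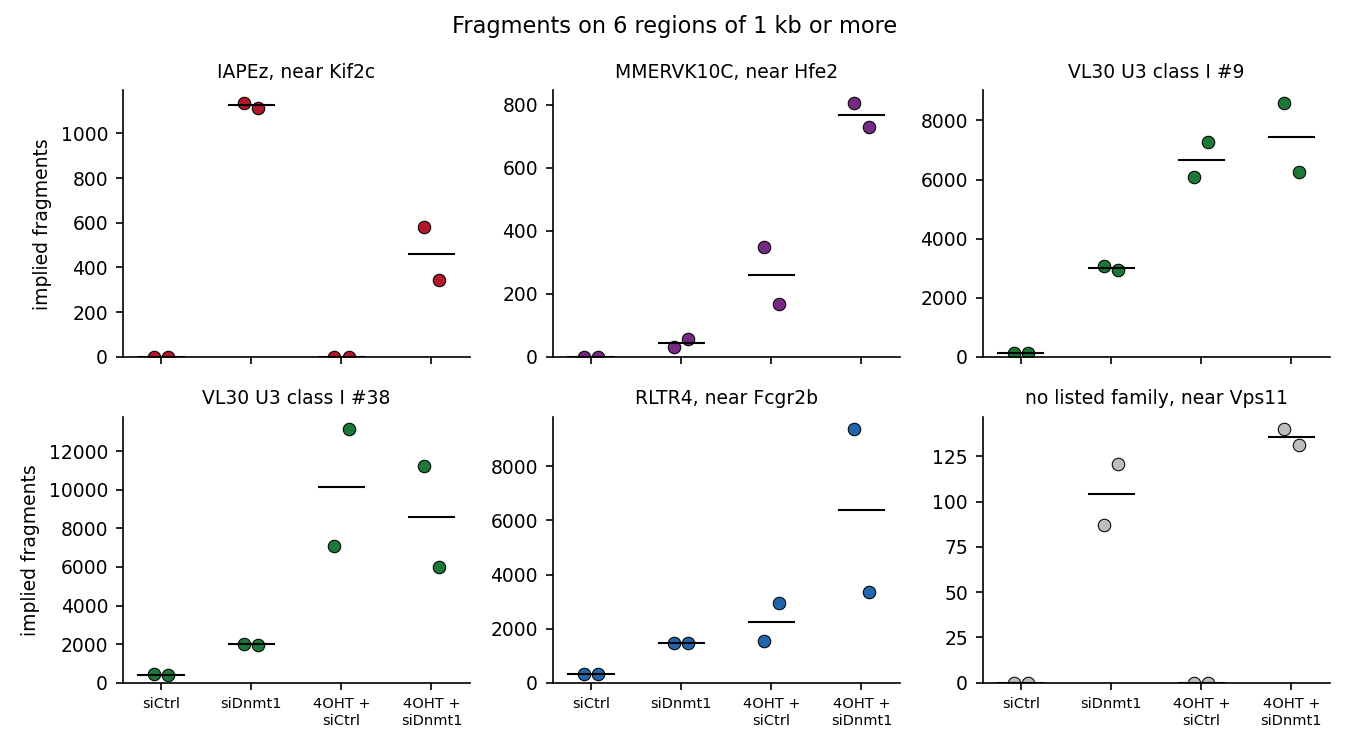
Implied fragments (y axis, linear, its own scale in each panel) on 6 regions of 1 kb or more in the 4 conditions. Each point is 1 library and the line is the mean of 2. The IAPEz region reaches 1135 in siDnmt1, the MMERVK10C region 805 in 4OHT + siDnmt1, and VL30 #9 and #38 have 5989 or more in the 4 libraries with 4OHT.

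The same regions were read in 2 experiments on these cells that share no library with the siRNA experiment. In the inhibitor experiment, 4OHT day 6 against untreated, 2863 of the regions passed the filter, and 404 were called higher and 131 lower. Of all features there, 5.07% were higher and 4.02% lower. Of 146 VL30 U3 class I regions tested, 113 were higher and 1 lower, and of 193 class III regions 140 were higher. Of 65 MMERVK10C regions, 14 were higher. All 65 were listed at 0 in both untreated libraries and entered through libraries with 4OHT, so none could be called lower. The same holds for each VL30 region at 0 in untreated cells, where 11 of the 71 listed class I elements had a row in each library. In the total RNA experiment, 4OHT day 5 against untreated, 850 regions were tested, and 83 were higher and 5 lower, beside 2.12% and 0.941% of all features. There, 11 of 15 MMERVK10C, 16 of 35 VL30 U3 class I and 18 of 38 class III regions were higher. The count of 5 lower regions was 18, 13 and 14 without untreated replicate 1, 2 and 3, and 8 without any 1 of the 4OHT day 5 libraries.

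Regions called in the siRNA experiment were then followed in these libraries. A region was tested in an experiment if it had at least 1 FPKM in at least 2 of its libraries, and the shares below leave out the regions not tested. A region at 0 in all untreated libraries could not be called lower. Of the 369 regions higher in 4OHT + siCtrl, 287 were tested in the inhibitor experiment, and 185 of those (64.5%) were called higher and 4 lower. In total RNA, 98 were tested, and limma called 30 higher and 0 lower, with 2 lower at an unadjusted p under 0.05. In the inhibitor experiment the share called higher was 84% of 81 for VL30 U3 class I, 79.2% of 96 for class III and 28.3% of 92 for regions of no listed family. Of the 129 regions lower in 4OHT + siCtrl, 84 were tested in the inhibitor experiment, and 13 were lower and 1 higher. In total RNA 22 of them were tested, and limma called 1 higher and 0 lower, with 2 lower at an unadjusted p under 0.05. For regions called lower, most were therefore not called again in either experiment.

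The inhibitor experiment also held cells treated with trichostatin A (TSA), a histone deacetylase inhibitor, and with PD0325901, an inhibitor of the kinase MEK. VL30 U3 class I regions had 107 and 103 FPM in untreated cells, 4630 and 5800 with 4OHT, and 3390 and 5740 with TSA. They had 1.91 and 5.74 with PD0325901, and 212 and 280 with 4OHT + PD0325901. The last 2 pairs lie below 4OHT alone in every library. The header of the file labelled PD0325901 replicate 2 names 4OHT + PD0325901, and the sample label was followed here. MMERVK10C had 0 fragments in untreated cells and with TSA, 75.7 and 210 with 4OHT, and 113 and 251 with 4OHT + PD0325901. IAPEz regions stayed between 19.6 and 68.7 FPM in all 10 of these libraries.

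The third comparison, 4OHT + siDnmt1 against siCtrl, addresses the loss of both. IAPEz, MMERVK10C and VL30 regions were all higher. Of the regions, 2730 were called higher and 203 lower, beside 17.4% and 3.99% of all features. MMERVK10C had the highest share, with 177 of 209 regions (84.7%), followed by VL30 U3 class III with 135 of 204 (66.2%), class I with 107 of 171 (62.6%), class IV with 13 of 21 (61.9%) and IAPEz with 1935 of 4364 (44.3%). Of the 2730, 2696 were listed at 0 in both siCtrl libraries. With quantile normalization there were 1672 higher and 530 lower calls, so the share of lower calls moved from 6.92% to 24.1%.

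The fourth comparison sets 4OHT + siDnmt1 against 4OHT + siCtrl and addresses what the knockdown adds once *Setdb1* is deleted. Here 2198 regions were called higher and 152 lower, beside 12.2% and 0.99% of all features. Of the 2198, 2173 were listed at 0 in both 4OHT + siCtrl libraries, where no region could be lower. Of the 1811 regions with a row in both 4OHT + siCtrl libraries, 19 were higher and 152 lower. IAPEz accounted for 1801 of the higher regions (41.3% of its regions) and MMERVK10C for 161 (77.0%). VL30 U3 class I had 10 regions higher and 5 lower, and class III 9 higher and 7 lower. The lower calls were 229 without 4OHT + siCtrl replicate 1. With quantile normalization there were 1250 higher and 369 lower, and the share of lower calls moved from 6.47% to 22.8%.

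The effect of the knockdown was also set side by side in cells with and without 4OHT, as an interaction term of limma. It rests on the FPKM that selected the regions, and a region listed in siDnmt1 alone must have a negative and one listed in 4OHT + siDnmt1 alone a positive value. The counts are therefore a description and no test of a different effect. Of the regions, 400 had a higher and 1149 a lower effect with 4OHT, beside 2.44% and 6.12% of all features. By limma MMERVK10C had 130 of 209 regions (62.2%) with a higher and 0 with a lower effect (1 at an unadjusted p under 0.05), while IAPEz had 39 with a higher and 887 (20.3%) with a lower one. VL30 U3 class III had 45 with a lower effect and class I 20. In fragments per kb, 2126 of 4328 IAPEz regions had a lower and 3 a higher effect, and 164 of 184 MMERVK10C regions had a higher one. Without 4OHT + siDnmt1 replicate 1 the counts over all regions were 703 higher and 1991 lower, and without replicate 2 the higher count was 721.

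MMERVK10C regions were thus listed above all where both treatments were combined. Their fragments were 0 in siCtrl, 2.05 and 3.81 FPM in siDnmt1, 75.8 and 49.7 in 4OHT + siCtrl, and 486 and 509 in 4OHT + siDnmt1. The combined condition was above the other 3 in every library. In FPM, 202 of the 209 regions were higher in both combined libraries than in either 4OHT + siCtrl library, and 0 were lower. Of the 209, 166 were listed in both 4OHT + siDnmt1 libraries alone and had to be higher, so the count is a description. Of the 3405 regions of no listed family, 484 were higher and 582 lower in this way, and 2268 of the 4364 IAPEz regions were higher. Over all 8535 regions, counted in FPKM, 3058 were higher and 580 lower. Named genes were not counted in this way. The region with the most fragments, at chr3:96312786-96319192, had 0 in siCtrl, 31 and 56 in siDnmt1, 349 and 169 in 4OHT + siCtrl, and 805 and 728 in 4OHT + siDnmt1. Its highest row did not follow its fragments, with 189 and 20.2, 165 and 26.9, and 11.4 and 219 FPKM in the 3 conditions after siCtrl. In total RNA at 4OHT day 5 it was higher by 2.51 on the log2(FPKM + 1) scale (SE 0.30, adjusted p = 0.000623, limma). A second long region, chr4:88413365-88417259, had 132 and 138 fragments in 4OHT + siCtrl and 440 and 318 in 4OHT + siDnmt1, and none elsewhere. Its difference between these conditions has the opposite sign in FPKM, with 289 and 79.1 against 25.6 and 10.7 FPKM.

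VL30 U3 class II differed between the 4OHT + siDnmt1 libraries. Of its 186 listed elements, 95 had a row in 4OHT + siDnmt1 replicate 1 and 16 in replicate 2. In 4OHT + siCtrl 4 and 18 had a row, and in the conditions without 4OHT at most 1. The listed elements carried 413 and 59.8 FPM in 4OHT + siDnmt1, so the replicates differed more than the conditions. The largest region of the class, chr14:54310570-54313545, had 2635 and 215 fragments in these libraries and none in the others. Without it, the regions of the class were at 28.9 and 35.5 FPM in 4OHT + siDnmt1 and at 9.38 and 33.0 FPM in 4OHT + siCtrl.

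RLTR4 regions were present in all conditions, with 962 and 962 FPM in siCtrl, 976 and 352 in siDnmt1, 485 and 1250 in 4OHT + siCtrl, and 1660 and 1360 in 4OHT + siDnmt1. Much of that spread came from 1 region on the named locus AI506816, chr5:23206292-23214765, with 9476 fragments in 1 siDnmt1 library and 88 in the other. Without it, the class was at 337 and 323 in siCtrl, 340 and 346 in siDnmt1, 478 and 700 in 4OHT + siCtrl, and 1580 and 679 in 4OHT + siDnmt1. Of the 148 regions, 8 were called higher with siDnmt1 and 6 lower. The region chr1:172871684-172880300, 10389 bp from *Fcgr2b*, had 328 and 333 fragments in siCtrl, 1456 and 1455 in siDnmt1, 1562 and 2946 in 4OHT + siCtrl, and 9392 and 3374 in 4OHT + siDnmt1. Its highest row went the other way, from 510 and 483 FPKM in siCtrl to 15 and 14.6 FPKM in siDnmt1, and the cause was not tested. The inhibitor experiment split in the same way, with -4.32 in FPKM (SE 1.60, adjusted p = 0.112, limma) and 2.21 in fragments per kb (SE 0.25, adjusted p = 0.0013, limma), while in total RNA it was higher by 4.79 in FPKM (SE 0.11, adjusted p = 7.51e-08, limma). All untreated libraries of total RNA listed this region at 0, so that difference is a level over a listed 0.

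The 3405 regions of no listed family carried many fragments but differed little as a class. They had 29000 and 34700 FPM in siCtrl, 34700 and 38400 in siDnmt1, 31700 and 58900 in 4OHT + siCtrl, and 39300 and 34900 in 4OHT + siDnmt1. The region that spans the mitochondrial genome held a large part, and without it the range was 14900 to 23200 over the 8 libraries. In all 4 comparisons between conditions the median log2 difference of the class was at most 0.06. Of the 1138 with a row in both siCtrl libraries, 9 were higher and 161 lower in siDnmt1, 7 and 121 in 4OHT + siCtrl, and 15 and 194 in 4OHT + siDnmt1. Such regions could be lower by losing their row, which the regions at 0 in siCtrl could not.

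Some long regions of no listed family were listed with the knockdown alone. The region chr14:22623750-22625285, printed above and 5679 bp from *Samd8*, had 241 and 255 fragments in siDnmt1, 160 and 73 in 4OHT + siDnmt1, and none in the other conditions. The region chr9:44172441-44173618, 2688 bp from *Vps11*, had 87 and 121 in siDnmt1 and 140 and 131 in 4OHT + siDnmt1, and none without the knockdown. Both levels are low beside those of VL30. Neither was listed in any library of untreated or 4OHT-treated cells of the inhibitor experiment.

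Other long regions differed from siCtrl with 4OHT as well. A region in an intron of *Atp2a2*, the calcium pump of the endoplasmic reticulum, at chr5:122904314-122905897, was listed at 0 in siCtrl, at 10.3 and 12 FPKM in siDnmt1, at 10.8 and 9.7 FPKM in 4OHT + siCtrl and at 8.16 and 8.37 FPKM in 4OHT + siDnmt1. In the inhibitor experiment it was listed in 1 of 2 libraries both of untreated and of 4OHT-treated cells, and in total RNA in all 3 libraries of untreated cells and 2 of 3 with 4OHT, so the order was not seen there. The region at chr8:125949644-125958477 on *Def8* had 17.0% of its words from a listed family, just under the 20% needed for assignment. Whether it derives from such a family was not tested. The region had 128 and 195 fragments in siCtrl and 2426 and 2436 in siDnmt1. With 4OHT + siCtrl it had 2769 and 1945 fragments, and with 4OHT + siDnmt1 3559 and 3839. It was higher at 4OHT day 6 in the inhibitor experiment by 5.29 (SE 1.07, adjusted p = 0.0186, limma) and in total RNA by 5.74 (SE 0.21, adjusted p = 9.56e-07, limma). All untreated libraries of total RNA listed the region on *Def8* at 0, so the latter difference is a level over a listed 0. A region in an intron of *Dpyd*, which encodes an enzyme of pyrimidine breakdown, at chr3:118555957-118557152, was at 35.2 and 27.9 FPKM in siCtrl, 45.9 and 43.2 FPKM in siDnmt1, 104 and 82.3 FPKM in 4OHT + siCtrl and 142 and 123 FPKM in 4OHT + siDnmt1. Its difference to siCtrl passed with 4OHT + siCtrl (1.53, SE 0.17, adjusted p = 0.009, limma) and not with siDnmt1 (0.49, SE 0.17, adjusted p = 0.0933, limma). With 4OHT it was higher by 2.11 (SE 0.22, adjusted p = 0.00184, limma) in the inhibitor experiment and by 2.24 (SE 0.06, adjusted p = 2.51e-07, limma) in total RNA.

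Among the long regions that were lower, chrX:49403553-49406070, 125 bp from *Gpc4*, a heparan sulphate proteoglycan, was at 19.3 and 18.1 FPKM in siCtrl, 6.35 and 5.34 FPKM in siDnmt1, 3.87 and 4.16 FPKM in 4OHT + siCtrl and 3.47 and 2.13 FPKM in 4OHT + siDnmt1. The region chr6:65657334-65662318, 410 bp from *Ndnf*, was at 3.33 and 3.36 FPKM in siCtrl and had no row in the other 6 libraries. The siCtrl libraries stood above the rest in both. In the inhibitor experiment the direction was the same for both at 4OHT day 6, but neither passed the test, with -1.56 near *Gpc4* (SE 0.98, adjusted p = 0.326, limma) and -2.81 near *Ndnf* (SE 1.18, adjusted p = 0.153, limma). A region on an exon of *Socs4*, an inhibitor of cytokine signalling, at chr14:47912194-47915727, was listed in 6 libraries with 242 to 417 fragments but had no row in either 4OHT + siCtrl library. It was listed in both 4OHT libraries of the inhibitor experiment, where it did not pass the test (log2 difference -0.14, SE 0.22, adjusted p = 0.72, limma).

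Genes of 3 lists, of interferon-induced, imprinted and germline genes, were looked up at or within 5000 bp of the regions. Of 40 interferon-induced genes, 12 had 18 regions, of which 3 were called higher in siDnmt1, 1 in 4OHT + siCtrl and 8 in 4OHT + siDnmt1, with none lower. All 18 regions were listed at 0 in both siCtrl libraries, so none could be lower against siCtrl and no median could be negative. Over all features 19.19%, 2.4% and 17.4% were called higher in these comparisons, and of the 8535 regions 3493, 369 and 2730. The median log2 difference of the 18 regions was 0.43, 0.32 and 2.64, against 2.66, 0.0 and 1.66 over all regions. In 4OHT + siDnmt1 alone, both regions on *Oas1a* were listed, at 3.2 and 2.13 FPKM and at 3.57 and 1.64 FPKM. A region 900 bp from *Oasl1* was listed there alone at 6.66 and 6.88 FPKM. A VL30 U3 class III region 2209 bp from *Oasl2*, at chr5:115341510-115344733, was instead highest in siDnmt1, with 69.5 and 77.8 FPKM, 18.9 and 23.7 FPKM in 4OHT + siCtrl, 14.4 and 13.7 FPKM in 4OHT + siDnmt1 and 0 in siCtrl. *Oas1a*, *Oasl1* and *Oasl2* belong to the antiviral oligoadenylate synthetase family.

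Of 18 imprinted genes, 2 had 4 regions. The 3 on *Airn*, the long non-coding RNA of the *Igf2r* cluster, were listed in both siCtrl libraries and in no library with *Dnmt1* siRNA. At chr17:13012026-13012765 the level was 1.38 and 2.25 FPKM in siCtrl, and no other library had a row. At chr17:13013138-13015744 it was 2.69 and 1.07 FPKM, again with no row elsewhere. The third, chr17:13008351-13011729, had 9.12 and 1.45 FPKM in siCtrl and 1.21 FPKM in 1 of the 4OHT + siCtrl libraries. All 3 were near the limit of 1 FPKM in at least 1 library. Of 19 germline genes in the files, 4 had 4 regions, of which 1, a VL30 U3 class I region on *Tdrd9*, was called higher in 4OHT + siCtrl, with 274 and 223 FPKM there against 0 in siCtrl.

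The genes that hold regions were also looked at. Of the 40 tested genes that hold a region of no listed family called higher in siDnmt1, 6 (15%) were higher and 3 (7.5%) lower. Of the 1042 genes that hold such a region not called, 1.34% were higher and 2.11% lower. For IAPEz regions called higher, 141 such genes were tested, and 8 (5.67%) were higher and 7 (4.96%) lower, with a median log2 difference of -0.05. For IAPEz regions not called, 7.84% of 102 genes were higher and 1.96% lower. Over all genes 1.95% were higher and 2.19% lower, and the differences between these shares were not tested. Among all genes the median was -0.08.

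The regions with the most extreme differences in FPKM were short. In the 4 comparisons, the rule for named regions picked 24 regions of 84 to 245 bp by their log2 difference. The one with the highest difference in siDnmt1, chr17:50803186-50803269, is an IAPEz sequence of 84 bp in *Plcl2*, with 31100 and 37200 FPKM from 19 and 30 fragments and no row elsewhere. The one with the most fragments, chr4:101716550-101716695, is of no listed family and 43565 bp from *Pde4b*. It had 5940 and 8560 FPKM from 241 and 215 fragments in siDnmt1, 3420 and 909 FPKM from 19 and 36 fragments in 4OHT + siCtrl, 4610 and 5850 FPKM from 293 and 200 fragments in 4OHT + siDnmt1, and no row in siCtrl. Its fragments were thus high with the knockdown and low without it. Leaving out all 988 regions under 200 bp left the counts of calls within 1.5 times of those given here.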

How the data were processed

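RNA-seq libraries of *Setdb1* cKO iMEFs were used, 8 from the siRNA experiment, 10 from the inhibitor experiment and 9 of total RNA. Per the submitters' processing notes and the study's methods, TopHat2 2.0.12 placed the reads on mm9, with a single position for reads that matched several, and Cufflinks then assembled the libraries separately. The FPKM values and their intervals, deposited by the authors, are per locus as Cufflinks wrote them. The 2 deposited tables of the authors' own comparisons, with group FPKM, fold changes, p and q values, were not used.

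Regions were built as described above. Starts were raised by 1 so that coordinates are 1-based. Fragments behind a row were inferred from the width of its FPKM interval, and the depth of a library from the same widths. Genes and regions with at least 1 FPKM in at least 2 libraries were fitted together on log2(FPKM + 1) by limma (version 3.58.1, R version 4.3.3) with group as the factor, all libraries of an experiment in 1 fit, and p-values were adjusted over all features by Benjamini-Hochberg. A call needed an adjusted p under 0.05 and a 2-fold difference on that scale, which understates changes of low values. The p-values measure the spread between these samples, which may be technical. The fit was tried on simulated data with equal noise in all conditions, taken from features above 0 in all 8 libraries. Regions listed at 0 in a condition were not simulated, so the trial does not cover them. Other steps used Python 3.11.15, pandas 2.3.3, numpy 2.4.6, pysam 0.24.0 and matplotlib 3.10.9.

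Families were assigned from element positions in the study's supplementary data, by 24-base words found in at least 5% of a family's elements, taken with 600 bp on each side. This assignment was chosen after the data were seen. The members, gene lists and marker lists were chosen with earlier results of these data known. Named regions were, per comparison, the 6 with the highest and 3 with the lowest difference among those called whose groups did not overlap, the 5 with the highest mean FPKM overall and per family, VL30 elements #9 and #38, and those at the limit of the selection. Those described were taken from these, and 1 result is not reported here. Long regions named beside them were chosen after their values were seen. Alternatives were another pseudocount, level, filter, scaling or sample set, a replicate block, and leaving out each library in turn. Regions of 200 bp or more and fragments per kb were added after the data were seen.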

Additional observations from a re-analysis of the deposited data

Results flagged for a closer look

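For 17 of the regions named by the rule, the values with and without *Dnmt1* siRNA differed by another amount in cells with than in cells without 4OHT, by the interaction term of limma on log2(FPKM + 1). Except for the last one below, all are at most 146 bp long, and most rest on 10 to 50 fragments per library. The term rests on the FPKM that selected the regions, so the sizes mostly restate which libraries had a row and are no test of a different effect.

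The effect was lower with 4OHT for regions listed in siDnmt1 alone, by an interaction of -15.05 at chr17:50803186-50803269, -13.97 at chr2:128585306-128585395, -13.9 at chr8:97323030-97323116 and -13.72 at chr7:23683291-23683376. It was also lower where siCtrl alone had no row, at -14.59 for chr7:29046659-29046784, -11.25 for chr1:193897620-193897716, -11.24 for chr4:101716550-101716695 and -12.57 for chr17:19036286-19036421. It was lower where rows were listed in 4OHT + siCtrl alone, at -12.35 for chr8:114547286-114547376 and -12.11 for chr7:100327478-100327568, and where 4OHT + siDnmt1 alone had none, at -12.0 for chr13:67912132-67912220.

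The effect was higher with 4OHT by 24.51 at chr8:19493533-19493623, listed in siCtrl and 4OHT + siDnmt1. It was higher by 14.45 at chr2:13508729-13508815, which had no row in siDnmt1 alone, by 12.98 at chr18:27758892-27758982 and 12.61 at chr13:76092431-76092518, both listed in siCtrl alone, and by 12.08 at chr16:33848415-33848510, listed in 4OHT + siDnmt1 alone. The VL30 region chr17:20027737-20032133 had -11.52 in FPKM but 0.42 in fragments per kb, so its direction depends on the measure.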

How the results depend on the processing

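Counts over all regions moved by over 1.5 times as follows. With a filter at 5 FPKM, lower calls were 46 for siDnmt1, 36 for 4OHT + siCtrl and 51 for 4OHT + siDnmt1 against siCtrl, 75 for 4OHT + siDnmt1 against 4OHT + siCtrl and 60 in the inhibitor experiment, the interaction had 120 higher, and total RNA 50 higher and 2 lower, with fewer regions tested. With quantile normalization, siDnmt1 had 642 lower, 4OHT + siDnmt1 1672 higher and 530 lower, and 4OHT + siDnmt1 against 4OHT + siCtrl 1250 higher and 369 lower. On no named locus, lower calls were 100, 72, 117 and 77 in the 4 comparisons in that order, 60 in the inhibitor experiment and 2 in total RNA. With only the 2 groups compared, 4OHT + siDnmt1 had 314 lower, and with no fold limit total RNA had 8 lower. In fragments per kb, the interaction had 2394 lower and total RNA 3 lower. Where no construction shows it, the cause was not tested. Without 1 library in turn, 4OHT + siCtrl had 208 to 461 higher, 4OHT + siDnmt1 against 4OHT + siCtrl 185 to 229 lower, the interaction 342 to 721 higher and 909 to 1991 lower, and total RNA 8 to 18 lower. Of 6306 values of named regions under the alternatives, 5981 kept their side of the threshold, 193 passed it newly and 126 no longer passed. Values that had not passed are not counted as reversed when their sign changed. Element #9 is such a case, with -1.11 in FPKM and 5.08 in fragments per kb for 4OHT + siCtrl against siCtrl. Among values that had passed, 6 reversed, all in fragments per kb. These were 0.16 at chr17:19036286-19036421, 1.10 at chr17:20027737-20032133 and 1.24 at chr4:88413365-88417259 for 4OHT + siDnmt1 against 4OHT + siCtrl, 0.42 at chr17:20027737-20032133 for the interaction, -0.05 at chr4:146595612-146596269 in the inhibitor experiment and 3.91 at chr2:75476154-75480926 for siDnmt1. Same-numbered libraries did not deviate together (correlations of -0.0873 to 0.0295), so the numbers do not pair them. A replicate block gave 3213 higher and 147 lower for siDnmt1, 286 and 108 for 4OHT + siCtrl, 2595 and 185 for 4OHT + siDnmt1, and 342 and 1027 for the interaction, and moved no count by over 1.5 times. Rows on under 20 fragments and copies with shared sequence limit what single regions show.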
